A study of Mus musculus with 8 samples.

Results

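Leukocyte marker transcripts were examined in the platelet RNA of TNFdARE mice and their littermate controls. The 10 genes were S100a8, S100a9, Lyz2, Cd74, Cd79a, Ptprc, Tyrobp, Lcn2, Ngp and Camp. They were taken by symbol from a table of 43548 genes in which 6566 were above 0 in at least 1 mouse. TNFdARE mice (genotype TNFdAre + in the labels) lack AU-rich elements in the Tnf gene, carry chronically raised TNF-α and develop inflammatory joint and bowel disease. The line had been crossed back to C57BL/6J, and the library names of the controls carry B6. Littermates (genotype TNFdAre -) served as controls, and the mutation was in all tissues, so blood cells of every kind carried it. Each group held 4 mice aged 8 to 12 weeks, 2 female and 2 male, all sampled at baseline without treatment. In the controls, mice 1 and 4 were labelled female, and in the TNFdARE group mice 2 and 4. Some label text conflicts with this, speaking of 3 mice per group and of older male mice. The platelets were isolated from blood by centrifugation and washed. The study checked the purity of its platelet samples by flow cytometry, and the methods read here name no step that depletes leukocytes.

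Platelets have no nucleus and carry RNA handed down from the megakaryocyte. Pf4 encodes platelet factor 4, an α-granule chemokine that marks this lineage, and it serves here as the reference level. Leukocytes are nucleated and each carries far more RNA than a platelet, so that few of them can add their transcripts to a platelet preparation. Neutrophils are known for S100a8, S100a9 and granule genes, monocytes and macrophages for Lyz2 and Tyrobp, B cells for Cd79a and Cd74, and nearly all leukocytes for Ptprc, which encodes CD45. In bulk RNA, fewer cells of a type and less RNA per cell cannot be told apart.

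Lyz2, which encodes lysozyme of macrophages and neutrophils, has a close relative in Lyz1, the Paneth cell lysozyme. Because the results turn on Lyz2, the stretch of coding sequence in which the genes are hardest to tell apart is shown for both. It is the 150 bases, the length of a sequencing read, from coding base 276 to 425 in the GENCODE transcripts, 5′ to 3′ in the sense of the transcript, with the bases that differ in capitals.
Lyz2: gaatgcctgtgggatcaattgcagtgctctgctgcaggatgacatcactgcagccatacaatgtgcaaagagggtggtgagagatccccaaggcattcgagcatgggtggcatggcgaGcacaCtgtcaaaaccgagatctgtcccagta
Lyz1: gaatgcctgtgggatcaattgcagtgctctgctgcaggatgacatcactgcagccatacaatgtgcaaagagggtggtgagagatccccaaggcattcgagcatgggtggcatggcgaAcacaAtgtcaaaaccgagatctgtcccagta
This window held 2 mismatches, the fewest of any in the coding sequence, and the window with the most held 15. Over the whole coding length of 447 bases there were 22 mismatches, and the longest exact run the full transcripts shared was 118 bases, shorter than a read. Lyz2 lies at chr10:117277331-117282321 on the minus strand of GRCm38 (mm10), with 4 exons, and Lyz1 lies 5475 bases away at chr10:117287797-117292868. In the table, Lyz1 was above 0 only in control mouse 4, at 0.0646 FPKM, so the reads were assigned nearly in full to Lyz2. How the processing shared out reads that fit both genes is not given in the sources used here.

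The libraries differed widely in how many genes they listed above 0, from 1479 to 2742 in controls and from 818 to 4917 in TNFdARE mice. TNFdARE mice 1 and 4 stood apart, with 818 and 1225 genes and with 6802 and 14556 FPKM (fragments per kilobase of transcript, scaled to the mapped reads) of summed globin, against 734 to 2896 FPKM in the other 6 libraries. The ribosomal RNA-related gene AY036118 took 33.7% to 67.7% of each library's summed FPKM. The table gives no counts, and the depth of each library is unknown. A listed 0 can be a failed estimate: Hprt, a gene that every cell uses, was at 0 in all 8 libraries, and Gapdh in 5. The platelet label held, since 22 of 26 platelet and megakaryocyte markers were above 0 in all 8 mice, beside 0.939% of all genes.

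Against Pf4, Lyz2 was the one leukocyte marker of the 10 listed in every mouse, and it stood at 2.75% to 24.3% of the Pf4 level. Cd74 was above 0 in 7 mice, at no more than 3.15% of Pf4. S100a9, Lcn2 and Ngp were each above 0 in 1 mouse. S100a8, Camp, Cd79a, Ptprc and Tyrobp were listed at 0 in all 8. Thus 5 of the 10 were above 0 in at least 1 mouse, beside 15.1% of all genes in the table. In all 8 mice 1 of the 10 was above 0, beside 0.939% of all genes, and in exactly 1 mouse 3 of the 10, beside 6.11%.

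Pf4 itself lies at chr5:90772435-90773383. Control mice 1 to 4 had 223, 213, 472 and 195 FPKM of it, and the TNFdARE mice in order had 434, 283, 357 and 423 FPKM. The highest value was that of control mouse 3, the other 3 controls were lower than every TNFdARE mouse, and the groups overlapped. Pf4 was between the 12th and the 27th most abundant gene of each library. Its log2 fold change, TNFdARE minus control on the log2(FPKM + 1) scale, was 0.52 ± 0.37 (SE, 2-sided exact permutation p = 0.17, n = 4 per group). With 4 mice per group, the smallest p this test can give is 0.0286, and it was run for 7 genes, of which 3 had a single mouse above 0, which fixes p at 1. Ppbp, which encodes another α-granule chemokine, went the other way, at a log2 fold change of -0.68 ± 0.39 (exact permutation p = 0.11, n = 4 per group). Neither passed the test, but the opposite signs matter for any level given relative to a single platelet gene.

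**Figure D1:**
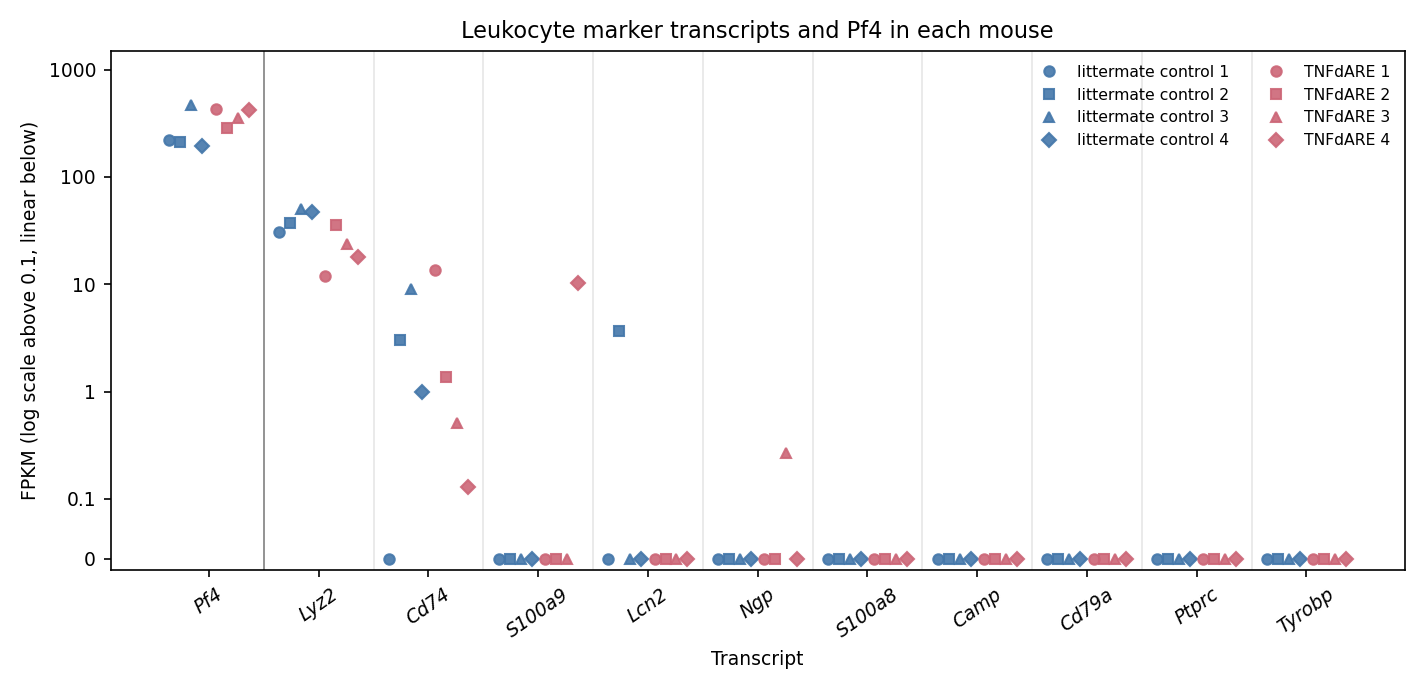
Level of Pf4 and of the 10 leukocyte marker transcripts in each mouse, in FPKM, on an axis that is logarithmic above 0.1 and linear below; each symbol is 1 mouse, with controls in blue and TNFdARE mice in red. Pf4 lies between 195 and 472 FPKM, Lyz2 is above 0 in all 8 mice, Cd74 in 7, and each of S100a9, Lcn2 and Ngp in 1.

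Lyz2 was lower on average in the TNFdARE platelets, but the difference did not pass the test. Its level was 30.8, 37.3, 50.3 and 47.3 FPKM in control mice 1 to 4. In TNFdARE mice 1 to 4 it was 11.9, 35.8, 23.9 and 18.1 FPKM. The groups overlapped through 1 pair alone, in which TNFdARE mouse 2 stood above control mouse 1, and 3.32% of all genes tested had groups that did not overlap. The mean was 41.4 ± 9.01 FPKM in controls and 22.4 ± 10.2 FPKM in TNFdARE mice (SD, n = 4 each). The log2 fold change was -0.94 ± 0.50 (SE, 2-sided exact permutation p = 0.057, n = 4 per group). In the limma fit over 1534 genes with a mean of at least 1 FPKM, its unadjusted p was 0.082 and its Benjamini-Hochberg adjusted p was 0.86. The median log2 fold change of the genes in that fit was -0.30, with 966 lower and 568 higher. The fitted value of Lyz2 is to be read against that shift, which depended on the processing. The median was 0.0088 over 6566 genes with no filter, -0.011 with sample weights and -0.062 with quantile normalization. Lyz2 stood at -0.94, -0.69 and -0.83 under these 3 settings.

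Lyz2 was among the more abundant transcripts in most of these preparations. It was between the 91st and the 165th most abundant gene in the controls. In TNFdARE mice 1 to 4 it was number 290, 117, 166 and 247. As a percent of the genes above 0 in the library, its place was 3.32% to 11.2% in controls. In TNFdARE mice 1 to 4 it was 35.5%, 3.67%, 3.38% and 20.2%. The lowest 2 places were those of TNFdARE mice 1 and 4, the libraries with the fewest genes and the most globin. Without both of these mice the log2 fold change of Lyz2 was -0.46, and the median over the genes tested was 0.018. With the number of genes above 0 in each library as a term in the limma fit, the log2 fold change of Lyz2 was -0.89 ± 0.44 (SE), beside -0.94 without that term. Both settings were chosen after seeing the data. What part the uneven libraries have in the Lyz2 difference was not tested.

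Set against Pf4, Lyz2 stood at 13.8%, 17.5%, 10.7% and 24.3% in control mice 1 to 4. The TNFdARE mice in order stood at 2.75%, 12.7%, 6.70% and 4.27%. The groups overlapped again through TNFdARE mouse 2, which was above control mouse 3. The mean was 16.6 ± 5.84% in controls and 6.59 ± 4.36% in TNFdARE mice (SD, n = 4 each), a log2 difference of -1.49 ± 0.53 (SE, 2-sided exact permutation p = 0.057, n = 4 per group). When every gene was divided by Pf4 before the limma fit, Lyz2 had an unadjusted p of 0.037 and an adjusted p of 0.70, and over all alternatives tried the adjusted p was 0.611 to 0.998. On that scale 5.25% of the genes tested were called lower at an unadjusted p under 0.05 and 0.855% higher. The division moved the median log2 fold change of the genes tested to -0.63.

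Set against Ppbp, the difference was nearly absent. Lyz2 was at 10.8%, 12.7%, 17.0% and 11.6% of Ppbp in control mice 1 to 4. The TNFdARE mice in order were at 3.61%, 15.3%, 14.7% and 15.0%. Of the TNFdARE mice 3 thus lay within the range of the controls, and mouse 1 lay below it. The log2 difference was -0.29 ± 0.53 (SE, 2-sided exact permutation p = 0.91, n = 4 per group). With every gene divided by Ppbp, 3.45% of the genes tested in the limma fit were called higher and 0.501% lower at an unadjusted p under 0.05. Against the geometric mean of 22 platelet and megakaryocyte markers that were above 0 in every mouse, Lyz2 was at 91.1% to 133% in controls and at 39.7% to 98.0% in TNFdARE mice, a log2 difference of -0.67 ± 0.34 (exact permutation p = 0.17, n = 4 per group). No exact permutation p over the 3 denominators was under 0.05, and the size of the Lyz2 difference depended on which platelet gene it was read against.

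**Figure D2:**
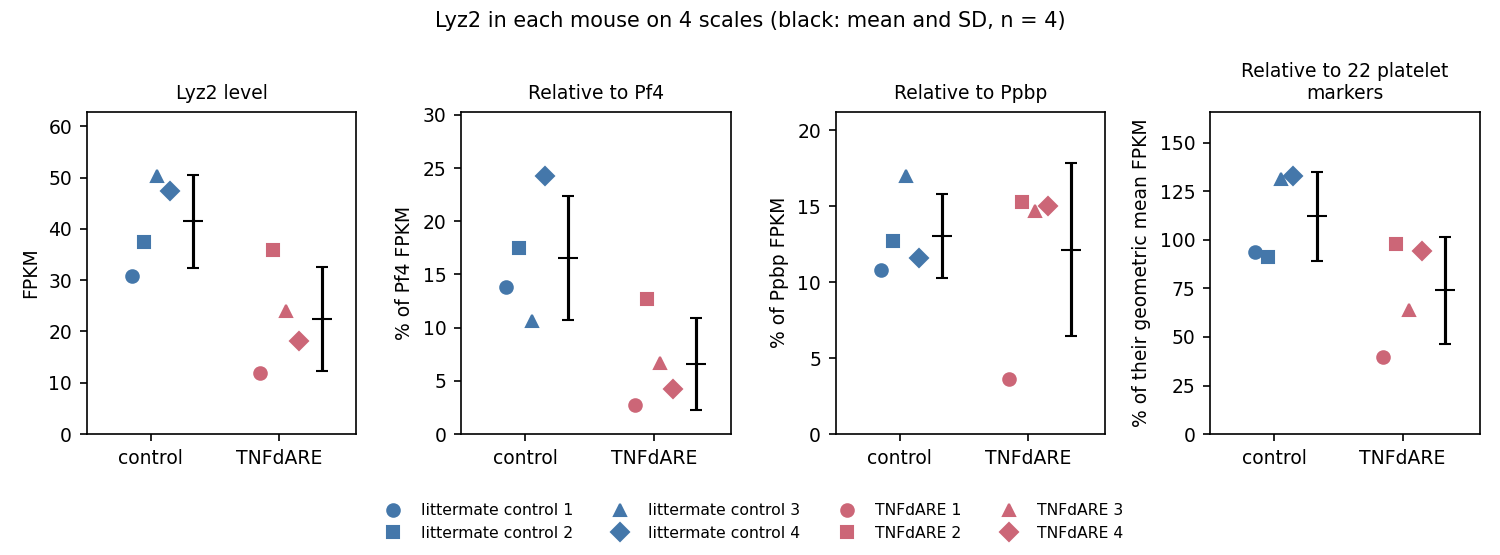
Lyz2 in each mouse on 4 scales, from left to right in FPKM, as a percent of Pf4, as a percent of Ppbp and as a percent of the geometric mean of 22 platelet markers; symbols are mice and black bars are the mean and SD of 4 mice. The TNFdARE mean is below the control mean in FPKM (22.4 against 41.4) and against Pf4 (6.59% against 16.6%) and close to it against Ppbp (12.1% against 13.0%).

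Lyz2 was lower in TNFdARE mice under all 24 other processings tried, with log2 fold changes from -1.43 to -0.27. These are not independent, since all of them use the same mice. The other filters, the fit without a trend, and sex or replicate number as a term left the value at -0.94. They could change only its error, not its direction. The unadjusted limma p was under 0.05 in 2 of these, relative to Pf4 and without TNFdARE mouse 2, where it was 0.0499 at a log2 fold change of -1.19.

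**Figure D3:**
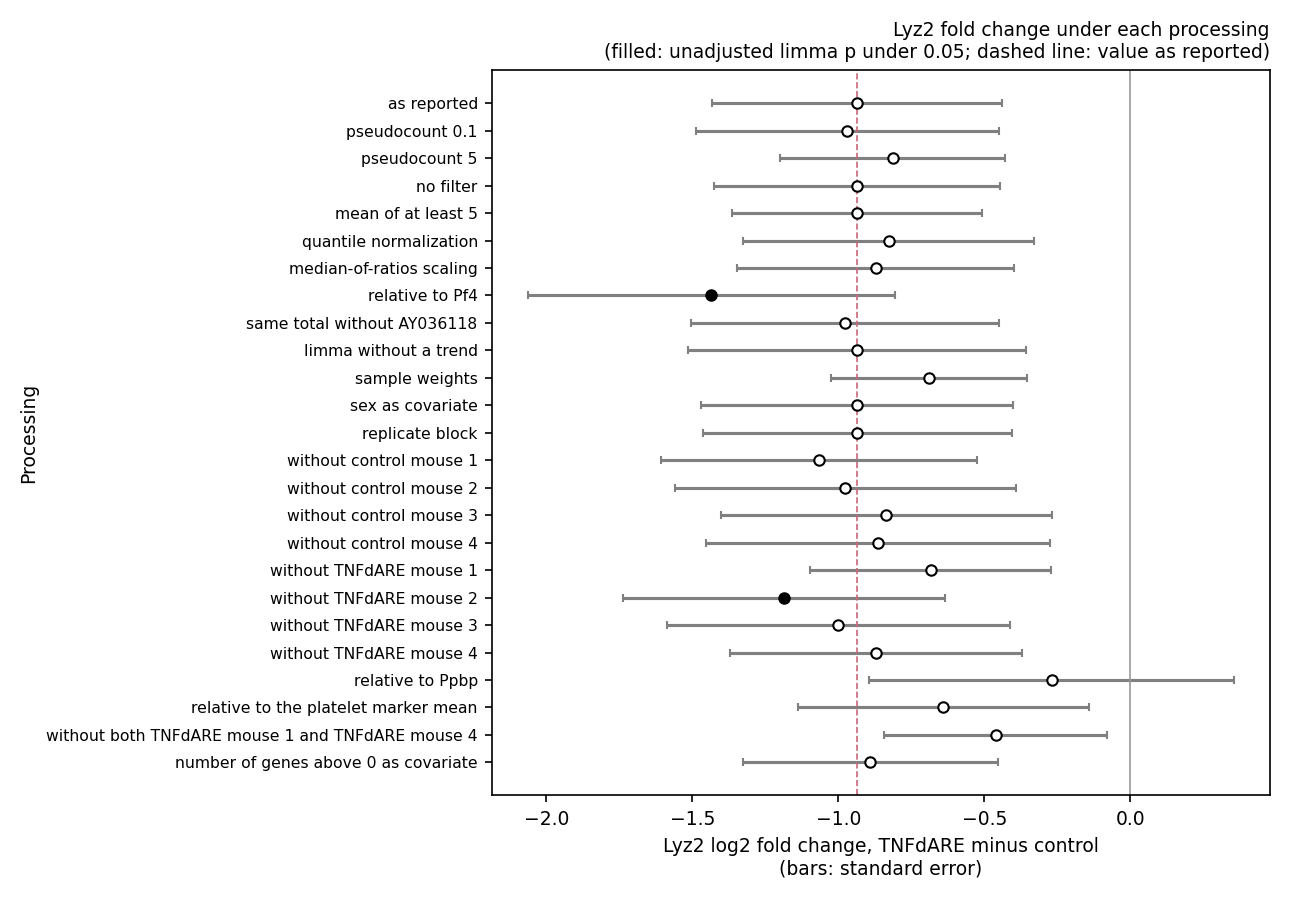
Log2 fold change of Lyz2, TNFdARE minus control, as reported and under each of 24 other processings; points are the limma estimate, bars its standard error, and filled points have an unadjusted p under 0.05. All points lie below 0, between -1.43 relative to Pf4 and -0.27 relative to Ppbp.

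Tyrobp and Ptprc, which monocytes and macrophages share with other leukocytes, were not seen beside Lyz2. Tyrobp encodes the adaptor DAP12, lies at chr7:30413760-30417585 and was at 0 in all 8 mice. Ptprc lies at chr1:138062861-138175708, where it overlaps A130071D04Rik, and was also at 0 in all 8. Among 19 monocyte and macrophage markers, 4 had a value above 0 in 1 mouse or more, beside 15.1% of all genes. Lyz2 was the one above 0 in every mouse, beside 0.939% of all genes. At 0 in all 8 were 15, including Cd14, Cd68, Itgam, Ccr2 and Ly6c2, and so were 36982 of all 43548 genes. Csf1r, which encodes the receptor for macrophage colony-stimulating factor, was at 0.0433, 0.276 and 0.0556 FPKM in TNFdARE mice 1 to 3 and at 0 in TNFdARE mouse 4 and all controls. Ms4a6c was at 0.464 FPKM in TNFdARE mouse 3 alone. Ctss, which encodes the lysosomal protease cathepsin S, was at 2.60 FPKM in control mouse 3 and 7.08 FPKM in TNFdARE mouse 4, and at 0 in the other 6. The summed level of the list was 30.8 to 52.9 FPKM in controls and 12.0 to 36.1 FPKM in TNFdARE mice, most of it Lyz2 in each mouse. In the limma fit 2 members of this list were tested, Lyz2 and Ctss, and Ctss passed the filter only through TNFdARE mouse 4. Neither had an unadjusted p under 0.05, beside 4.5% of all 1534 genes, and so few genes say little of the list.

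The neutrophil genes appeared in single mice. S100a8 and S100a9 encode the paired subunits of calprotectin, the main protein of the neutrophil cytosol, and lie 22596 bases apart at chr3:90668978-90670035 and chr3:90692632-90695721. S100a9 was at 10.3 FPKM in TNFdARE mouse 4, which is 2.43% of Pf4 in that mouse, and was listed at 0 in the other 7. S100a8 was listed at 0 in TNFdARE mouse 4 as well. Lcn2, which encodes the iron-sequestering granule protein lipocalin 2 (chr2:32384633-32388252), was at 3.66 FPKM in control mouse 2, or 1.72% of Pf4, and at 0 in the other 7. Ngp, which encodes neutrophilic granule protein (chr9:110419747-110423012), was at 0.269 FPKM in TNFdARE mouse 3, or 0.0754% of Pf4, and at 0 elsewhere. Camp, which encodes the antimicrobial peptide cathelicidin (chr9:109847379-109849617), was at 0 in all 8. With a single mouse above 0, the permutation test cannot tell the groups apart for S100a9, Lcn2 or Ngp. No 2 of these 3 genes were above 0 in the same mouse.

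Of the wider list of 22 neutrophil genes, 6 were above 0 in at least 1 mouse, beside 15.1% of all genes, and none in all 8. The 16 at 0 in every mouse include Ly6g, Csf3r, Cxcr2, Mmp8 and Retnlg. In TNFdARE mouse 3, the library with the most genes above 0, the primary granule genes Prtn3, Elane and Mpo were at 0.302, 0.121 and 0.19 FPKM beside Ngp. They were at 0 in the other 7 mice. The summed neutrophil level was 0 to 3.66 FPKM in controls and 0 to 10.3 FPKM in TNFdARE mice, and 5 of the 8 mice were at 0. Only S100a9 passed the filter of the limma fit, through a single mouse, and it was not called.

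**Figure D4:**
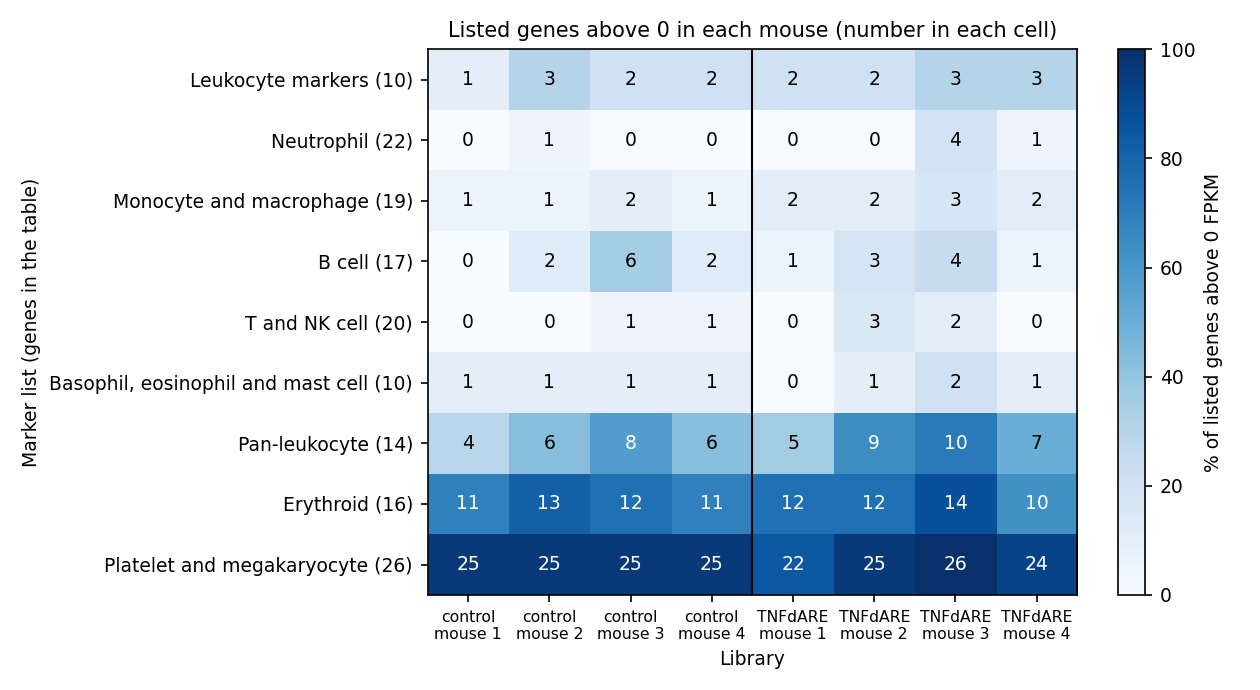
Number of genes above 0 FPKM in each mouse (columns) for each marker list (lines, with the number of listed genes in the table), colored by the percent of listed genes above 0. Platelet and megakaryocyte markers are above 0 for 22 to 26 of 26 genes in every mouse, whereas neutrophil markers reach 4 of 22 in TNFdARE mouse 3 and are at 0 in 5 mice.

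Among the B-cell members, Cd74 was seen and Cd79a was not. Cd74 encodes the invariant chain of MHC class II, which B cells, dendritic cells and macrophages all make. Control mice 1 to 4 had 0, 3.01, 9.01 and 0.986 FPKM of it, and the TNFdARE mice in order had 13.7, 1.37, 0.506 and 0.129 FPKM. The groups overlapped throughout, and the highest value was that of TNFdARE mouse 1, the library with the fewest genes above 0. The log2 fold change was -0.11 ± 0.96 (SE, exact permutation p = 0.91, n = 4 per group; limma adjusted p = 0.99), and its sign changed with the processing. Cd79a, which encodes the signaling chain Igα of the B-cell receptor (chr7:24897381-24902197), was listed at 0 in all 8. A stretch of 298 bases in its transcript is 98.66% identical to Gm32220, whereas 8 of the 10 members had no other gene with at least 90% identity over 100 bases.

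Other B-cell transcripts were listed beside Cd74 in several mice. Of 17 B-cell genes, 7 were above 0 in at least 1 mouse, beside 15.1% of all genes, and none in all 8. Control mouse 3 had 6 of 17 B-cell genes above 0, the most of any: the immunoglobulin genes Igkc (23.2 FPKM, with 6.14 FPKM in control mouse 4, 12.1 FPKM in TNFdARE mouse 3 and 0 in the other 5) and Ighm (2.09 FPKM), the class II genes H2-Aa (3.58 FPKM) and H2-Eb1 (3.29 FPKM), Ly6d (4.57 FPKM) and Cd74 itself. H2-Eb1 was higher in control mouse 2, at 4.36 FPKM. TNFdARE mouse 3 had H2-Aa at 1.40 FPKM and Ighm at 0.366 FPKM, with Cd74 at 0.506 FPKM. TNFdARE mouse 1, where Cd74 was highest, listed Cd74 alone. The summed B-cell level was 45.7 FPKM in control mouse 3, 0 to 7.37 FPKM in the other controls and 0.129 to 14.4 FPKM in TNFdARE mice. Pax5, the transcription factor gene of the B lineage, was at 0.134 FPKM in TNFdARE mouse 2, where Ighm was at 0.0576 FPKM, and at 0 in the other 7. Ms4a1 and Cd79b were at 0 in all 8 mice. Of the B-cell list, 2 genes were tested, Igkc and Cd74, and neither had an unadjusted p under 0.05, beside 4.5% of all genes tested. So few genes say little of the list.

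Of 20 T and NK cell genes, 6 were above 0 in at least 1 mouse, beside 15.1% of all genes, and none in all 8. Their summed level was at most 1.5 FPKM in any mouse. Of the 10 basophil, eosinophil and mast cell genes, 2 were above 0 in at least 1 mouse, beside the same 15.1% of all genes. Only Gata1 of these, which megakaryocytes also use, passed the filter. It was at 0.128 to 7.87 FPKM in controls and at 0 to 33 FPKM in TNFdARE mice, and it was not called.

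Genes shared by most leukocytes gave a different picture from Ptprc. Of 14 such genes, 11 were above 0 in at least 1 mouse, beside 15.1% of all genes, and 4 in every mouse, beside 0.939%. At 0 in every mouse were 3, namely Ptprc, Cd48 and Ptprcap. Laptm5, a lysosomal membrane protein gene of blood cells, was at 26.5 to 34.5 FPKM in controls and 8.05 to 31.0 FPKM in TNFdARE mice. Itgb2, the β2 integrin chain, was at 11.1 to 19.0 FPKM in controls and 13.9 to 28.5 FPKM in TNFdARE mice. Arhgdib, a gene expressed across blood cells, was at 6.93 to 16.5 FPKM in controls and 11.8 to 32.9 FPKM in TNFdARE mice, and Lcp1, an actin-bundling protein gene, at 1.18 to 4.82 FPKM and 0.369 to 12.0 FPKM. These 4 genes were thus read in libraries where Ptprc was at 0, and for each the groups overlapped.

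Fcer1g, whose product is an adaptor like that of Tyrobp and which platelets use with the collagen receptor GPVI, was at 0, 5.59, 17.0 and 8.34 FPKM in control mice 1 to 4. In TNFdARE mice 1 to 4 it was at 0, 9.56, 7.42 and 27.6 FPKM. Each group thus had 1 mouse at 0. Cd37, a tetraspanin gene, was at 22.8 FPKM in TNFdARE mouse 4 and at no more than 0.871 FPKM in the other 7. Cd52, a surface glycoprotein gene, was at 10.2 FPKM in control mouse 3 and at no more than 0.395 FPKM in the other 7. Cd37 and Cd52 passed the filter of the limma fit through 1 mouse each, which fixed their direction. Of the pan-leukocyte list 7 genes were tested, and none had an unadjusted p under 0.05, beside 4.5% of all genes. The 25 platelet and megakaryocyte genes tested had a median of -0.35 with none called at an unadjusted p under 0.05, beside 4.5% of all genes. Relative to Ppbp their median turned to 0.26, with 3 of 25 called higher beside 3.45% of all genes. Relative to Pf4 it was -0.84, with 2 of 25 called lower beside 5.25% of all genes. Among 11 erythroid genes tested, 6 were higher at an unadjusted p under 0.05, beside 1.76% of all genes. Without TNFdARE mice 1 and 4 the number was 0 of 10, beside 40 of 1591 genes. These mice stood apart by their globin, which is part of this list, so their removal decides nothing here. The summed erythroid level was 795 to 2232 FPKM in controls and 1144 to 14706 FPKM in TNFdARE mice.

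The summed level of the 10 leukocyte markers was 30.8, 44.0, 59.3 and 48.3 FPKM in control mice 1 to 4. In TNFdARE mice 1 to 4 it was 25.6, 37.2, 24.7 and 28.5 FPKM. Lyz2 made up 84.8% to 100% of the sum in controls and 46.6% to 96.9% in TNFdARE mice, with the lowest shares in TNFdARE mouse 1, where Cd74 made up the rest, and in TNFdARE mouse 4, where S100a9 did for the most part. Relative to Pf4 the sum was 13.8%, 20.6%, 12.6% and 24.8% in control mice 1 to 4. The TNFdARE mice in order had 5.90%, 13.1%, 6.91% and 6.73%. The mean was 18.0 ± 5.76% and 8.17 ± 3.34% (SD, n = 4 each), and the groups overlapped through TNFdARE mouse 2 and control mouse 3. Because Ppbp went the other way from Pf4, the mean log2 difference of the sum was -1.16 against Pf4 and 0.05 against Ppbp.

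Control mice 1 to 4 listed 1, 3, 2 and 2 of the 10 markers above 0, and the TNFdARE mice in the same order listed 2, 2, 3 and 3, a mean of 2 ± 0.816 and 2.5 ± 0.577 (SD, n = 4 each). The groups overlapped, and the mice with 3 markers did not share the third one: it was Lcn2 in control mouse 2, Ngp in TNFdARE mouse 3 and S100a9 in TNFdARE mouse 4. With at least 1 FPKM as the threshold, the number was 1, 3, 2 and 1 in controls and 2, 2, 1 and 2 in TNFdARE mice. Of the 10 members, 3 passed the filter of the limma fit (Lyz2, Cd74 and S100a9). S100a9 passed through TNFdARE mouse 4 alone, so the filter fixed its direction. None of the 3 had an unadjusted p under 0.05. Over all 1534 genes, limma gave 42 genes (2.74%) lower and 27 (1.76%) higher in TNFdARE mice at an unadjusted p under 0.05, and 0 at an adjusted p under 0.05.

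The genes whose pattern over the 8 mice was most like that of Lyz2, by Pearson's r of log2(FPKM + 1) as a description, were Trp53bp1 (r = 0.953), Pttg1ip (r = 0.936) and Rap1b (r = 0.927). All 3 had their lowest value in TNFdARE mouse 1, as Lyz2 did: Rap1b, a small GTPase gene abundant in platelets, was at 0 there and at 10.7 to 13.9 FPKM in controls. For Cd74 they were Gm13375 (r = 0.912), Gng11 (r = 0.906), a G protein subunit gene of platelets, and Pitpna (r = 0.899), all with their highest value in TNFdARE mouse 1. Library depth is unknown, and what these correlations rest on was not tested.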

How the data were processed

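Platelet RNA of 4 TNFdARE and 4 littermate control mice was sequenced by the authors as 150 bp reads on an Illumina instrument. The deposited values were taken as FPKM, because the submitters' processing notes name Cufflinks (build mm10) and the column sums range from 46047 to 99470. Versions, annotation and the handling of multiply mapped reads are not given in the sources used here. Whole reads could not be recovered from the values (31.1% to 56.7% of low values came within 0.1 of a whole number in 7 libraries), so no count test was run, and no depth is known. Columns were assigned to mice by library name, with 0 value columns left unassigned. No libraries were identical. The replicates are separate mice.

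The 10 members and the marker lists were chosen with earlier results of these data known. Genotypes were compared with limma 3.58.1 (R 4.3.3) with a trend on log2(FPKM + 1), over genes with a mean of at least 1, with Benjamini-Hochberg adjustment. They were also compared by 2-sided exact permutation tests (Python 3.11.15). Fold changes on this scale understate changes of low genes. The SE given with the fold change of a gene is the moderated one of the limma fit, also where a permutation p stands beside it. The SE of a Lyz2 ratio to platelet genes comes from the variances of the groups, without moderation, so the SEs are not alike. In data simulated for this comparison with 200 of 1534 genes changed by 3 on the log2 scale, limma recovered 60.5% with 6 false calls. The simulated noise was normal and independent between genes, without the zeros and the uneven libraries of the data. The share recovered therefore does not apply to smaller differences, such as that of Lyz2 (-0.94). All members and Pf4 are named, with the tested genes of each leukocyte list (at most the 6 highest) and the 3 genes most alike, whereas other platelet and erythroid genes are given as counts. Listed genes outside this rule, such as Ly6d, Cd52, Csf1r, Pax5, Elane or those at 0, were named after their values were seen. Coordinates and transcripts are from GENCODE M21 (GRCm38), compared with BLAST 2.17.0. Alternatives were pseudocount, filter, scaling, weights, sex, replicate number and each mouse left out.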

Additional observations from a re-analysis of the deposited data

Results flagged for a closer look

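In 14 of 42 groups of 4 mice, a single mouse lay apart from the other 3 by more than 0.829 of the group's whole range; chance marks about 1 in 20 groups of independent, normally spread values, which does not hold for groups with 3 mice at 0 or for the same gene on several scales. The gap was the whole range (1) wherever the other 3 mice were at 0: S100a9 and Ctss in TNFdARE mouse 4, Ngp and Igkc in TNFdARE mouse 3, Ctss in control mouse 3, Lcn2 in control mouse 2 and Lyz1 in control mouse 4. Cd37 stood apart in TNFdARE mouse 4 (0.971 of the range) and, at 0.871 FPKM, in control mouse 4 (0.832). Cd74 stood apart in TNFdARE mouse 1, both in FPKM (0.909) and relative to Pf4 (0.855). In the same mouse Lyz2 was low relative to Ppbp (0.951). Pf4 was high in control mouse 3 (0.9), and the summed members relative to Pf4 were high in TNFdARE mouse 2 (0.86). TNFdARE mice 1 and 4 hold 6 of the 14, and they were the libraries with the fewest genes above 0.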

How the results depend on the processing

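Values below are log2 fold changes, TNFdARE minus control, unless named otherwise. Lyz2 (-0.94) was called at the unadjusted limma threshold relative to Pf4 (-1.43) and without TNFdARE mouse 2 (-1.19), and with each mouse left out it ranged from -1.19 to -0.68. Cd74 (-0.11) turned positive with quantile normalization (0.17), relative to Ppbp (0.0925) and relative to the platelet marker mean (0.0344), and ranged from -0.91 to 0.47 with each mouse left out. Itgb2 turned to -0.18 relative to Pf4 and Laptm5 to 0.0037 relative to Ppbp. The summed members relative to Pf4 (-1.16) ranged from -1.41 to -0.98 with each mouse left out, and were -0.33 against the platelet marker mean and 0.0501 against Ppbp. The mean number of members detected in TNFdARE mice was 1.75 at 1 FPKM or more, in place of 2.5. Genes with an unadjusted p under 0.05 numbered 69, with 36 at a mean of at least 5 FPKM, 111 with sample weights, and 46 to 76 with each mouse left out; adjusted calls stayed at 0. Of these calls 27 were higher and 42 lower, against 14 and 86 relative to Pf4, 55 and 8 relative to Ppbp, 31 and 29 with quantile normalization, 74 and 37 with sample weights, and 40 and 11 without TNFdARE mice 1 and 4. The median over the genes tested was -0.30, but -0.63 relative to Pf4 and 0.22 relative to Ppbp. It was 0.0088 with no filter, -0.011 with sample weights, -0.062 with quantile normalization and 0.018 without TNFdARE mice 1 and 4. Beyond these settings themselves, the cause was not tested. S100a9 has no value without TNFdARE mouse 4, relative to Pf4 or at a mean of at least 5 FPKM. For single genes and counts of calls, the scalings by Ppbp and by the platelet marker mean, the number of genes above 0 as a term and the removal of TNFdARE mice 1 and 4 together were chosen after seeing the data, the last also for the sums and detection.

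Mice with the same replicate number did not deviate together (r from -0.0673 to 0.0599, 2 of 8 mice closest to their own number). Some library names share a stem across the genotypes. This holds for control mouse 1 with TNFdARE mouse 1 (r = 0.0599) and for control mouse 4 with TNFdARE mouse 3 (r = 0.0422). What the stems stand for is not given. With so few mice these correlations cannot exclude a pairing by litter or batch, and a fit paired by name was not run. With the replicate block 64 genes had an unadjusted p under 0.05, and Lyz2 was at -0.94, with a limma adjusted p of 0.87.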
